A study of Mus musculus with 24 samples.

Results

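Integrins and laminins are the paired receptors and matrix proteins that anchor cells to basement membranes. The genes described here are every row of the deposited expression matrix named as an integrin alpha chain (Itga), an integrin beta chain (Itgb) or a laminin alpha, beta or gamma chain (Lama, Lamb, Lamc). The matrix held 36 such genes among 14159 with a symbol. These were 18 integrin alpha chains, 8 integrin beta chains and 10 laminin chains, and Lama1 was not analysed here. The genes were picked by name, so no measured value entered the choice.

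The study removed a piece of the quadriceps measuring 3 mm by 3 mm (volumetric muscle loss, VML) from female mice aged 6 to 8 weeks. The inbred strains were C57BL/6 (B6), a standard laboratory strain, and MRL/MpJ (MRL), an autoimmune-prone strain known for closing some wounds with little scar. In each strain the quadriceps was left uninjured, or the defect received saline (the control injury), decellularized extracellular matrix from pig small intestinal submucosa (ECM), or polyethylene powder (PE). Whole quadriceps was sequenced as bulk RNA 21 days after injury, with 3 libraries in each of the 8 groups and 24 libraries in all. No genetic change separated the groups other than the strain background, and all injured groups carried the same defect.

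An integrin at the cell surface is a pair of 1 alpha and 1 beta chain, and the pairing decides what the cell can hold on to. Itgb2 pairs with Itgal, Itgam, Itgax or Itgad on white blood cells, where the pairs bind cell surface ligands, complement fragments and fibrinogen. Itgb1 pairs with many alpha chains, among them Itga7, which ties the muscle fibre to laminin. A laminin is a cross-shaped trimer of 1 alpha, 1 beta and 1 gamma chain, and the basement membrane around adult muscle fibres is built mainly from Lama2 with Lamb1 or Lamb2 and Lamc1. Loss of Lama2 or Itga7 causes muscular dystrophy.

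The values are log2 CPM, the logarithm of read counts scaled to a common library total, as normalized by the authors. The matrix gives no total per library, and its lowest value of -3.65, which stands for 0 reads, corresponds to a mean effective library size of 25149678. At that size 3 reads equal 0.119 CPM, and all 36 genes were above 0 in all 24 libraries. One library stood apart from its group. Across all genes, MRL PE replicate 2 correlated with the other MRL PE libraries at r = 0.812 and 0.827, and with the B6 PE libraries at r = 0.894 to 0.934. Within the 7 other groups r was 0.904 to 0.976. Summed over 11 macrophage and other myeloid markers it held 4660 CPM, against 232 and 243 CPM in the other MRL PE libraries. Over 12 fibre markers it held 38900 CPM, against 150000 and 152000 CPM, and over 8 adipocyte markers 461 CPM, against 5320 and 3480 CPM. Calls on PE in MRL mice are therefore given with and without this library, which also enters the error that all comparisons share.

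**Figure D1:**
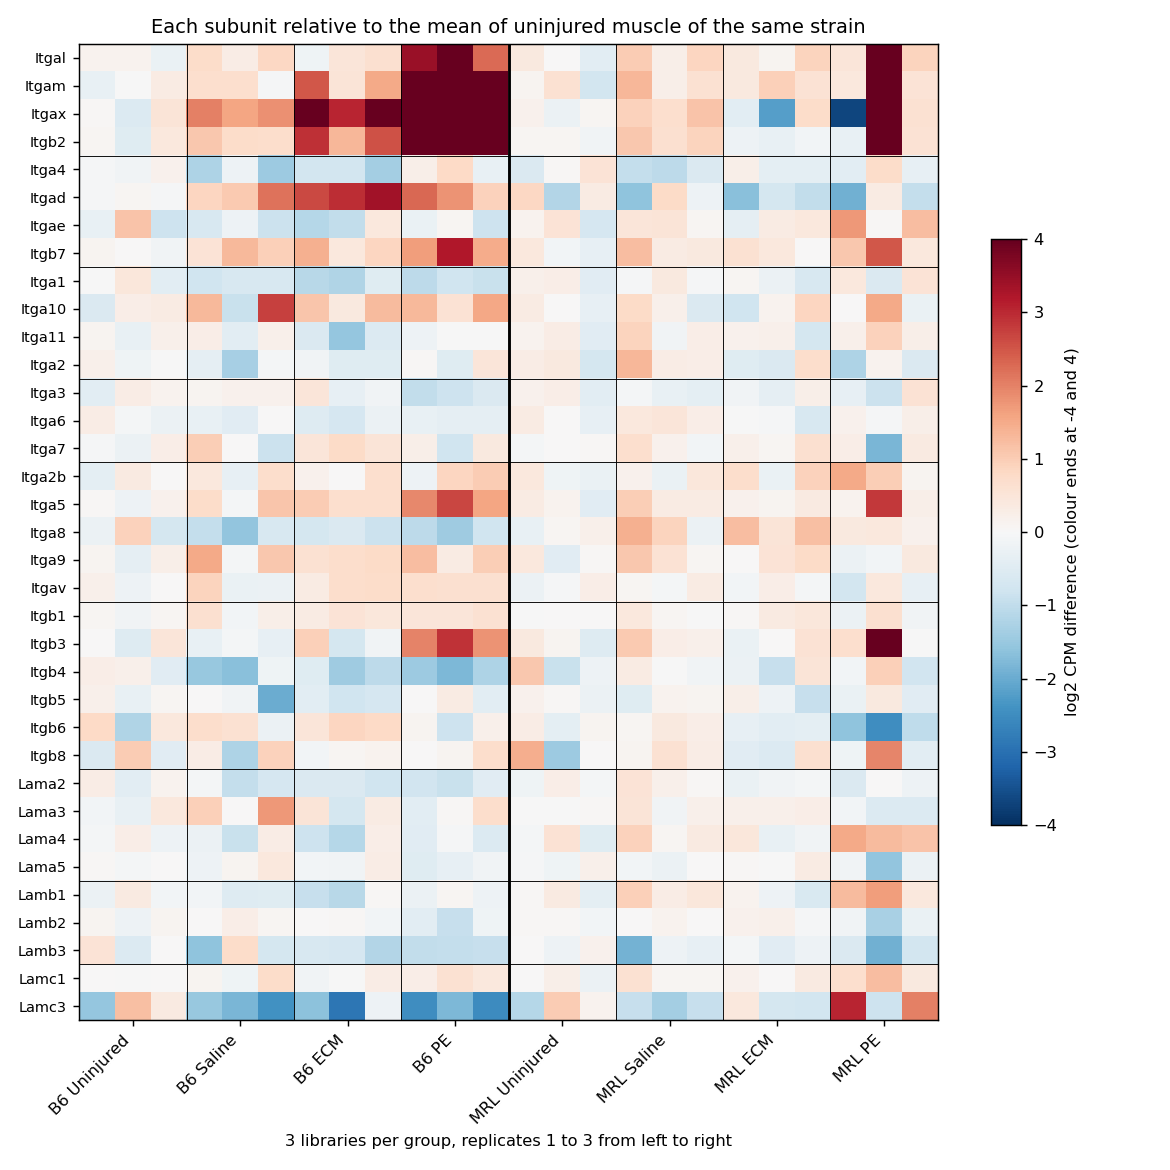
Difference in log2 CPM of 35 of the 36 genes (rows, ordered by role) in each of the 24 libraries (columns) from the mean of uninjured muscle of the same strain. Red is higher and blue lower, and colour ends at -4 and 4. The 4 leukocyte integrins at the top are red in the 3 B6 PE libraries and in MRL PE replicate 2, and the laminin rows at the bottom stay mostly pale, apart from Lamc3.

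Of the subunits, Itgb1 was the most abundant per transcript length in uninjured muscle, at 50.2 ± 4.10 CPM per kb (SD, n = 3) in B6 and 52.9 ± 0.897 in MRL mice. Lamb2 followed at 39.0 ± 4.90 CPM per kb in B6 and 48.5 ± 3.21 in MRL mice. Itga7, the fibre's laminin receptor chain, was the fifth in both strains, at 17.5 ± 3.24 and 17.2 ± 0.740 CPM per kb. Itgax stood 27 of 36 in B6 and 18 of 36 in MRL mice by the same measure. In PE-treated muscle the order of means changed at the top. Itgb2 reached 210 ± 124 CPM per kb in B6 PE and Itgax 148 ± 86.9, both above Itgb1 at 72.5 ± 3.71. In MRL PE the means of Itgb2 and Itgax, 171 and 134 CPM per kb, came from replicate 2 with 506 and 400 CPM per kb, since the other libraries held 2.71 and 4.99 for Itgb2 and 0.135 and 2.93 for Itgax. Of the alpha chains that pair with Itgb2, Itgax made up 17.5% of their summed CPM per kb in uninjured B6 muscle. The B6 share was 34.2% after saline, 58.4% with ECM and 67.8% with PE. In MRL muscle it was 44.3% without injury, 49.5% after saline, 31.2% with ECM and 43.2% ± 36.6 (SD, n = 3) with PE.

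The leukocyte integrins Itgal, Itgam, Itgax and Itgb2 rose in B6 muscle treated with PE. All 4 were higher than in uninjured B6 muscle, by between 3.27 and 8.05 on the log2 scale, and higher than in the saline-treated injury, by between 2.65 and 6.24. In 2 of the 3 MRL PE libraries all 4 were below every B6 PE library. Library labels do not say that replicates were separate animals, so the p-values measure the spread between samples. The plot of the 4 genes by group shows the same split.

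Itgax encodes CD11c, carried by dendritic cells and many macrophages. It lay at 1.05, 0.46 and 1.51 log2 CPM in uninjured B6 muscle and at 3.02, 2.57 and 2.85 after saline. It reached 5.99, 4.04 and 5.56 with ECM and 9.10, 9.94 and 8.12 with PE. The 4 B6 groups did not overlap, and the order of their means ran from uninjured through saline and ECM to PE. PE exceeded uninjured muscle by 8.05 ± 1.61 (SE, limma, adjusted p = 0.00384), a 265-fold difference, and the saline injury by 6.24 ± 1.61 (limma, adjusted p = 0.032). Between ECM and uninjured muscle the difference was 4.19 ± 1.61 (limma, adjusted p = 0.21), and it passed once MRL PE replicate 2 was left out (SE 0.81, adjusted p = 0.00983).

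In MRL mice, Itgax was at 3.18, 2.76 and 3.07 log2 CPM without injury, at 3.91, 3.66 and 4.14 after saline and at 2.59, 0.79 and 3.74 with ECM. The MRL PE libraries held -0.66, 10.68 and 3.60, which are both the lowest and the highest Itgax level among all 24 libraries. Uninjured MRL libraries were all above the uninjured B6 libraries, by 1.99 ± 1.61 in the mean (limma, adjusted p = 0.759), and a fit to these 2 groups alone gave an adjusted p of 0.0278. The 11 myeloid markers summed to 142 to 177 CPM in uninjured B6 and 82.6 to 173 CPM in uninjured MRL muscle.

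Itgb2 encodes CD18, the beta chain shared by the leukocyte integrins. Its levels were 2.76, 2.18 and 3.10 log2 CPM in uninjured B6 muscle, 3.75, 3.40 and 3.38 after saline, 5.60, 4.02 and 5.22 with ECM and 9.09, 10 and 8.24 with PE. As for Itgax, no B6 group overlapped another. PE exceeded uninjured muscle by 6.43 ± 1.15 (limma, adjusted p = 0.0025) and saline by 5.60 ± 1.15 (adjusted p = 0.0198). The MRL libraries lay between 3.03 and 4.41 outside PE, and at 3.03, 10.55 and 3.90 with PE.

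Itgam encodes CD11b, found on monocytes, macrophages and neutrophils. Uninjured B6 muscle held 2.50, 2.78 and 3.15 log2 CPM, and B6 PE 7.79, 8.63 and 6.84. The ECM libraries, at 5.28, 3.31 and 4.33, overlapped those of saline at 3.49, 3.48 and 2.77. The PE difference was 4.94 ± 0.95 from uninjured (limma, adjusted p = 0.00327) and 4.51 ± 0.95 from saline (adjusted p = 0.0198). MRL PE held 3.14, 8.67 and 3.25.

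Itgal encodes CD11a of the lymphocyte integrin LFA-1. It was at 1.16, 1.17 and 0.76 log2 CPM in uninjured B6 muscle and at 4.49, 5.10 and 3.31 in B6 PE, which do not overlap. PE exceeded uninjured muscle by 3.27 ± 0.72 (limma, adjusted p = 0.0063) and saline by 2.65 ± 0.72 (adjusted p = 0.0382). In MRL PE it was at 1.16, 5.39 and 1.55. Without B6 PE replicate 2, the adjusted p against uninjured muscle became 0.0522 for Itgal and stayed under the threshold for the other 3 genes. Against saline it was 0.193 to 0.275 for all 4. Those saline calls were also lost without B6 PE replicate 1 or any B6 saline library, except Itgb2 without B6 saline replicate 1.

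**Figure D2:**
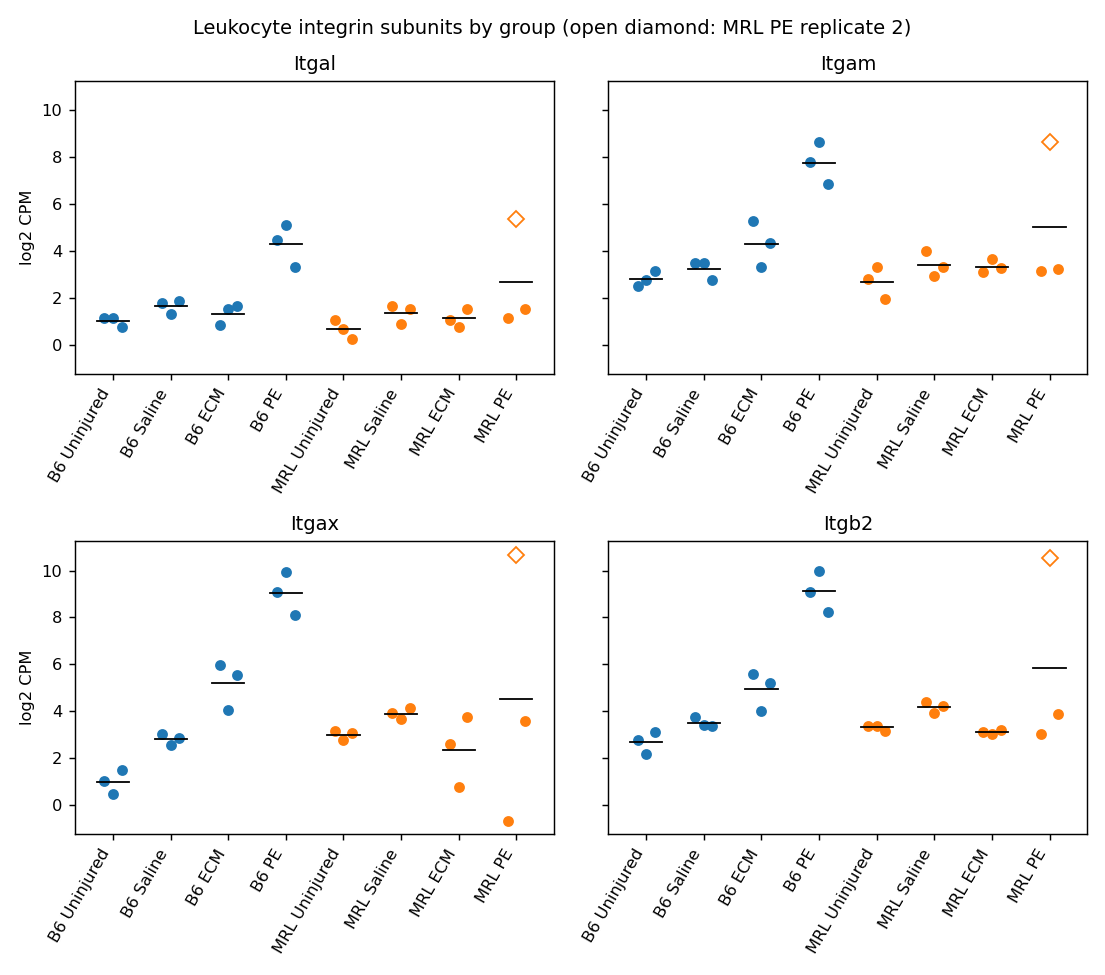
Level (log2 CPM) of Itgal, Itgam, Itgax and Itgb2 in each library of the 8 groups. Dots are libraries (blue B6, orange MRL), the open diamond is MRL PE replicate 2 and lines are means of 3. The B6 PE dots lie above all other B6 dots in each panel, and 2 of the 3 MRL PE libraries lie far below the diamond.

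Itgam, Itgax, Itgad and Itgal lie on chromosome 7 of GRCm39, on the forward strand. Itgam spans bases 127661808 to 127717753, Itgax 127728668 to 127749829 and Itgad 127753548 to 127822988. Itgal is farther off, at 126895432 to 126934320. Since neighbours Itgam and Itgax moved together, the 250 bases before their start sites are shown with those of Itgb1, which was not called with all libraries. Sequences are the forward strand from RefSeq on the older build GRCm38.p6, at chr7:128062390-128062639 for Itgam, chr7:128129300-128129549 for Itgax and chr8:128685404-128685653 for Itgb1. Capitals mark GAGGAA or its reverse complement, the core bound by the myeloid factor PU.1.
Itgam: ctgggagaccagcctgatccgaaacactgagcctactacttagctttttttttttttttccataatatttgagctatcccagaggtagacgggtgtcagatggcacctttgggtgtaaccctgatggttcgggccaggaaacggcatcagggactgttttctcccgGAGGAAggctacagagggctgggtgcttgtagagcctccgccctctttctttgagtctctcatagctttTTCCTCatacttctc
Itgax: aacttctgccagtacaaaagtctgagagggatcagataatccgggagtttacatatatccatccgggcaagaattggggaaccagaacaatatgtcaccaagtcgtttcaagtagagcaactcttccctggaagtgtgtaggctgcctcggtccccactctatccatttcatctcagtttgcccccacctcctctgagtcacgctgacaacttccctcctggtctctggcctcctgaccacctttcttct
Itgb1: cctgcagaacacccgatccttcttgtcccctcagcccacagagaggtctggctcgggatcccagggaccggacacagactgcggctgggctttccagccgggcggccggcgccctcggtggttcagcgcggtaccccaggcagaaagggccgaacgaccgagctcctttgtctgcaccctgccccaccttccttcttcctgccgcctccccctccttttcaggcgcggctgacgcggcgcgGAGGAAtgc
Itgam held the motif 2 times, Itgb1 1 time and Itgax 0 times in this window. Of the 36 genes, 23 had an entry of this length and 13 of these held the motif in at least 1 entry, against 26.4% of the 10444 genes of the matrix with an entry. Of all 32851 promoters in the table, 23.3% held it. Itgal, Itgb2, Itgad and Lamc1 had no entry.

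Counts over all 36 genes put these changes beside the rest of the transcriptome. In B6 PE against uninjured muscle, 9 of 36 were called at an adjusted p under 0.05 in limma, 6 higher and 3 lower. Of all genes tested 24.8% were called, 14.7% higher and 10% lower. Against the saline injury, 4 of 36 were called, all of them leukocyte integrins, with 5.97% of all genes called. Over the 32 other genes the median difference of B6 PE from uninjured was -0.07, against 0.02 over all genes and 5.69 over the 4 leukocyte integrins. Without MRL PE replicate 2 the counts were 17 of 36 against uninjured (34.8% of all genes) and 10 of 36 against saline (17.5%). In bulk tissue, more cells of a type and more RNA per cell cannot be told apart. Myeloid markers moved with these genes. All 11 were above uninjured muscle in the B6 PE mean and 10 were called, and their sum was 1560 to 5550 CPM in B6 PE, 273 to 677 CPM in B6 ECM, 307 to 368 CPM after saline and 142 to 177 CPM without injury. The 5 neutrophil markers summed to 26.1 to 158 CPM in B6 PE and 4.27 to 6.30 CPM in uninjured B6 muscle. The part of cell numbers in the leukocyte integrin levels was not tested.

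**Figure D3:**
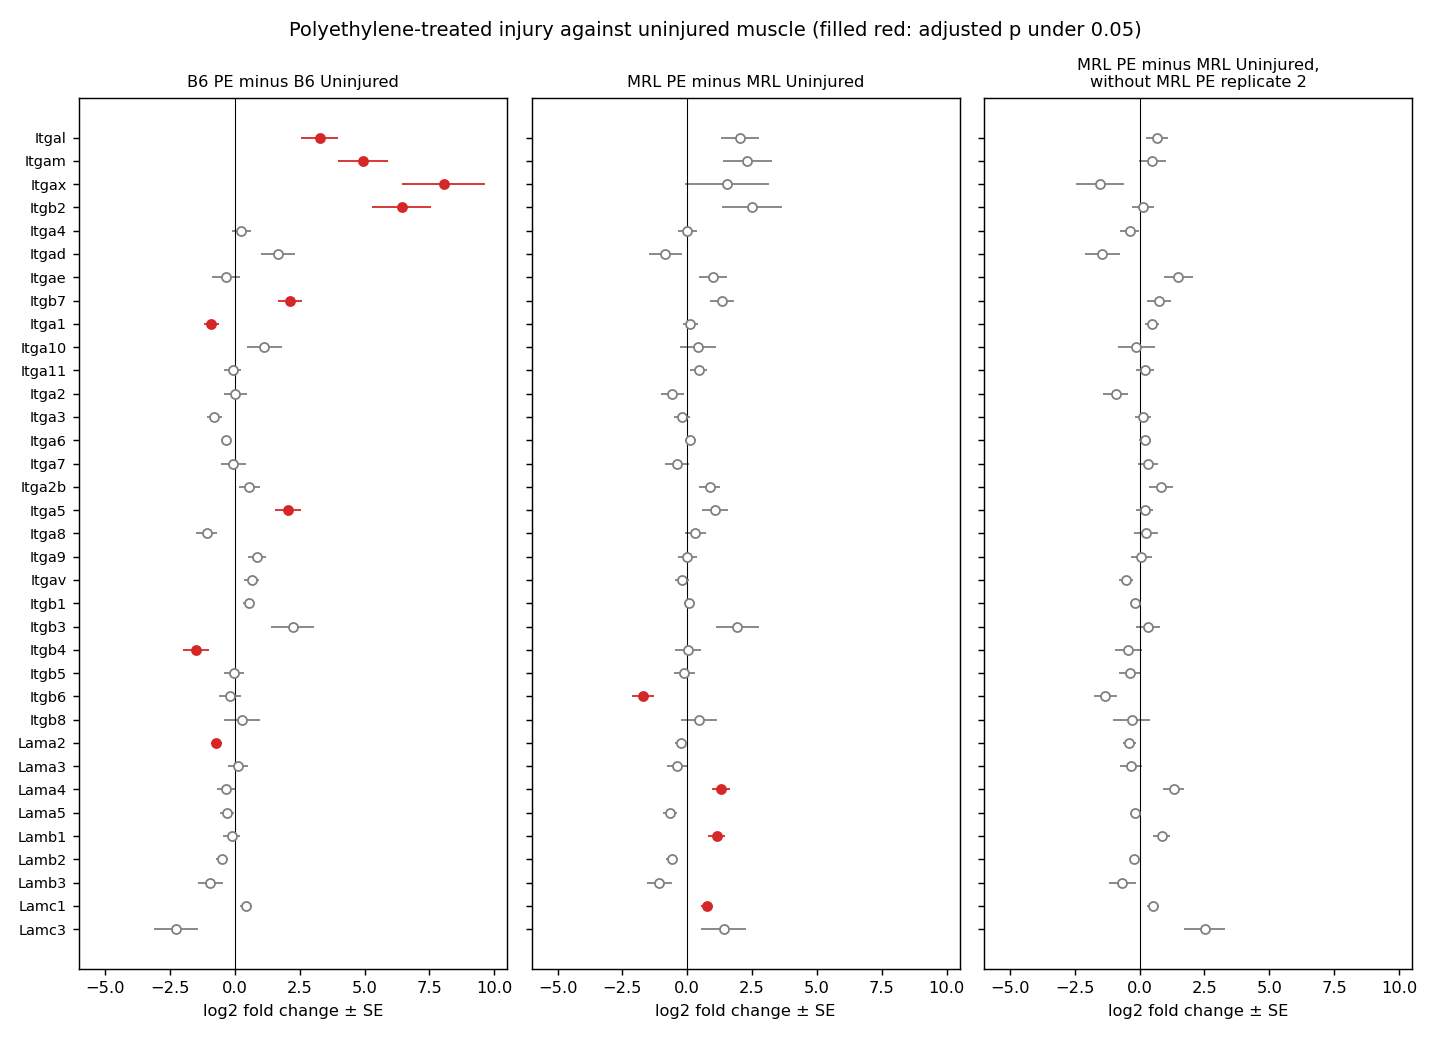
Log2 fold change ± SE of 35 of the 36 genes (rows) between PE-treated and uninjured muscle, in B6 mice (left), in MRL mice (middle) and in MRL mice without replicate 2 of MRL PE (right). Filled red points passed an adjusted p of 0.05, with 9 in the left, 4 in the middle and 0 in the right panel.

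Between ECM and PE in B6 mice no gene of the 36 was called in limma (12 at an unadjusted p under 0.05, against 20.6% of all genes), where 0.226% of all genes were called. Leaving out MRL PE replicate 2 brought the count to 8 of 36, with 11.5% of all genes called. Then Itgb2 was 4.16 ± 0.39 higher with PE than with ECM (limma, adjusted p = 7.96e-06), Itgax 3.86 ± 0.81 (adjusted p = 0.00459), Itgam 3.45 ± 0.47 and Itgal 2.96 ± 0.38. Itgb3, the beta chain of the platelet and osteoclast integrins, was 2.18 ± 0.40 higher, and Lamb2 was 0.49 ± 0.15 lower (adjusted p = 0.0459). For ECM against uninjured B6 muscle, 1 of 36 was called with all libraries (0.424% of all genes) and 4 of 36 without that library (3.74%), namely Itgad, Itgax and Itgb2 higher and Itga1 lower. Against saline, ECM gave 0 called genes of the 36 in B6 (3 at an unadjusted p under 0.05, against 3.99% of all genes) and 0 in MRL mice (2, against 3.55%), with 0.0283% and 0.00706% of all genes called in limma.

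In MRL mice the leukocyte integrins were high with PE in 1 of 3 libraries. The 4 genes summed to 19.5, 3590 and 39.1 CPM in the MRL PE libraries, against 22.2 to 28.6 CPM in uninjured and 37.3 to 55.5 CPM in saline-treated MRL muscle and 706 to 2440 CPM in B6 PE. With all libraries, Itgax differed from uninjured MRL muscle by 1.54 ± 1.61 (limma, adjusted p = 0.497), and without replicate 2 by -1.53. Against saline, PE gave 0 called genes of the 36 in MRL mice (8 at an unadjusted p under 0.05, against 23.3% of all genes), and 0 of all genes were called in limma. None was called there without replicate 2 either. Against ECM, MRL PE gave 0 of 36 (9 at an unadjusted p under 0.05, against 28.4% of all genes) and 0 of all genes. MRL ECM against uninjured MRL muscle gave 0 of 36 (2 at an unadjusted p under 0.05, against 3.8%) with 0.0141% of all genes. The direct comparison of PE-treated MRL with B6 muscle also called 0 of 36 with all libraries (9 at an unadjusted p under 0.05, against 19.1% of all genes), where 3.35% of all genes were called in limma. Without that library it called 14 of 36, 10 lower and 4 higher in MRL, with 24.6% of all genes called, 14.1% lower and 10.6% higher. Itgax then differed by -7.59 ± 0.91 on the log2 scale, MRL PE minus B6 PE (limma, adjusted p = 9.44e-06), and Itgb2 by -5.65 ± 0.43 (adjusted p = 5.34e-08). The differences were -4.56 ± 0.52 for Itgam, -2.95 ± 0.43 for Itgal and -2.57 ± 0.45 for Itgb3. Itga2, Itga5, Itgav, Itgb1 and Itgb7 were also called lower. The 4 called higher in MRL PE were Itga1, Itgae, Lamb2 and Lamc3. The 2 remaining MRL PE libraries were assumed to vary like the other groups.

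The interaction of strain and PE, MRL minus B6 in the change from saline to PE, gave 0 called genes of the 36 with all libraries (8 at an unadjusted p under 0.05, against 4.34% of all genes), and 0 of all genes were called in limma. For Itgax the interaction was -5.61 ± 2.28 (limma, adjusted p = 0.988). Without MRL PE replicate 2 it was -8.68 ± 1.22 (adjusted p = 0.000302), and 7 of 36 were called, with 4.41% of all genes. Interactions for saline against uninjured muscle and for ECM against saline called 0 of 36 with and without that library (3 and 1 at an unadjusted p under 0.05 with all libraries in limma, against 4.03% and 2.26% of all genes). So did saline against uninjured muscle in each strain, with 9 genes at an unadjusted p under 0.05 in B6 (12.4% of all genes) and 1 in MRL mice (3.1%), and 0 of all genes called by limma.

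With all libraries, of the other integrins of leukocytes, Itgb7 was called with PE and Itgad in other comparisons. Itgb7, which pairs with Itga4 or Itgae on lymphocytes that home to the gut, was at 1.16, 1.05 and 0.90 log2 CPM in uninjured B6 muscle and at 2.71, 4.24 and 2.53 in B6 PE. The groups did not overlap and PE was higher by 2.12 ± 0.47 (limma, adjusted p = 0.00661). Without B6 PE replicate 2, the library with the highest value, the difference was 1.59 (adjusted p = 0.0607). Itga4, the VCAM1 receptor chain, was at 5.26, 5.82 and 4.75 in B6 PE and 5.0, 4.89 and 5.21 in uninjured B6 muscle, which overlap. Without MRL PE replicate 2, Itga4 was called higher in B6 PE than in B6 muscle with saline or with ECM. Itgae, the E-cadherin receptor chain of tissue T cells, stayed low, between -1.11 and 1.72 log2 CPM in all libraries. Without MRL PE replicate 2, Itgae was called higher in MRL PE than in B6 PE, but not with all libraries.

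Itgad was the rarest of the 36 genes per kb in uninjured B6 muscle, at 0.0353 CPM per kb. With all libraries it was called between uninjured strains and with ECM. Without MRL PE replicate 2 it was also called higher in B6 PE than in uninjured B6 muscle. Uninjured B6 muscle held -2.26, -2.14 and -2.25 log2 CPM, which is 0.129 to 0.148 CPM and barely above the level of 3 reads. The uninjured MRL libraries held 1.29, -0.70 and 0.78, all above B6, and the B6 ECM libraries 0.43, 0.73 and 1.13. MRL exceeded B6 by 2.67 ± 0.65 without injury (limma, adjusted p = 0.0274), where 1 of 36 was called and 2.6% of all genes. ECM exceeded uninjured B6 muscle by 2.98 ± 0.65 (adjusted p = 0.047). With counts this low the size depends on the prior count. On the log2(CPM + 1) scale the differences were 1.07 (adjusted p = 0.0999) and 1.21 (adjusted p = 0.0922). The call between strains was also lost without any of the 3 uninjured B6 libraries or uninjured MRL replicate 1 or 3, and the call with ECM without any of its 6 libraries (adjusted p 0.114 to 0.149). Its exons share 70 bases with Cox6a2, a muscle gene of the opposite strand. The authors' kallisto commands set no strand option, so reads from this stretch cannot be told apart by strand. Cox6a2 differed between uninjured strains by -0.01 ± 0.42 and with ECM by -0.51 ± 0.42.

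Itga7, the laminin receptor chain of the fibre, was not called in any comparison. It was at 6.10, 5.92 and 6.43 log2 CPM in uninjured B6 muscle and at 6.37, 5.36 and 6.53 in B6 PE, which overlap (difference -0.06 ± 0.47, limma, adjusted p = 0.93). It was lowest in MRL PE replicate 2, at 4.32, where fibre markers were also lowest, and at 6.40 and 6.51 in the other MRL PE libraries. Its B6 ECM libraries, at 6.63, 6.93 and 6.66, were all above those of uninjured muscle, by 0.59 ± 0.47 (adjusted p = 0.526). Itga3 and Itga6, the laminin receptor chains of epithelium and vessels, were not called with PE in either strain with all libraries. Without MRL PE replicate 2, Itga3 was called lower in B6 PE, by -0.79 ± 0.27 against uninjured muscle (limma, adjusted p = 0.0291) and by -0.95 ± 0.27 against saline (adjusted p = 0.0207). Itgb1, the common partner of the collagen, fibronectin and laminin receptors, was at 8.05, 7.83 and 8.04 without injury and at 8.46, 8.47 and 8.59 with PE in B6 mice. Those groups did not overlap, and the difference was 0.53 ± 0.21 (limma, adjusted p = 0.0673), or 0.53 ± 0.16 (adjusted p = 0.0189) without MRL PE replicate 2. In MRL PE it was at 7.80, 8.69 and 7.92.

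Among chains that bind fibronectin and other RGD ligands, Itga5 rose with PE in B6 mice. This chain of the main fibronectin receptor was at 4.12, 3.88 and 4.25 log2 CPM in uninjured B6 muscle and at 6.01, 6.76 and 5.66 with PE, without overlap. The difference was 2.06 ± 0.50 (limma, adjusted p = 0.00984), and 1.75 (adjusted p = 0.0729) without B6 PE replicate 2. MRL PE held 4.31, 6.99 and 4.41, so replicate 2 was again the high library. Itgb3 had the same shape, at 2.89, 2.37 and 3.37 in uninjured B6 muscle, at 4.85, 5.78 and 4.67 in B6 PE and at 2.87, 7.32 and 2.19 in MRL PE. It was called in B6 PE only without MRL PE replicate 2, by 2.23 ± 0.40 (adjusted p = 0.0005). Its partner Itga2b, which marks platelets, stayed between 0.82 and 2.59 log2 CPM in all libraries.

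Itga1, Itgb4 and Lama2 were lower in PE-treated than in uninjured B6 muscle. Itga1, a collagen receptor chain, was at 5.24, 5.71 and 4.86 log2 CPM without injury and at 4.21, 4.46 and 4.39 with PE, and it fell by 0.91 ± 0.29 (limma, adjusted p = 0.0306). Itgb4, the laminin receptor chain of epithelium and Schwann cells, went from 4.58, 4.52 and 3.86 to 2.87, 2.51 and 3.08, a fall of 1.5 ± 0.51 (adjusted p = 0.0388). Neither pair of groups overlapped. Single left-out libraries ended these calls: B6 uninjured replicate 1 or 2 or B6 PE replicate 1 or 2 for Itga1 (adjusted p 0.0702 to 0.114), and the same 4 or B6 uninjured replicate 3 for Itgb4 (adjusted p 0.054 to 0.149). In the same comparison 5 of 9 endothelial and 5 of 8 Schwann cell markers were called lower, against 10% of all genes. Kdr differed by -1.39 and Tek by -1.02. Endothelial markers summed to 529, 538 and 475 CPM in uninjured B6 muscle and 305, 337 and 375 CPM in B6 PE. The Schwann cell sums were 212, 612 and 75.6 CPM and 64.6, 85.2 and 62.8 CPM, which overlap. Markers of epithelium, skin and mammary gland summed to 243, 323 and 261 CPM and 333, 503 and 300 CPM in the same groups. Itgb4 shares 1074 exon bases with Galk1 of the opposite strand, which was higher by 1.02 ± 0.33. Lower levels were not confined to PE. Itga1 was also below every uninjured B6 library after saline, at 4.46, 4.63 and 4.64, and with ECM, at 4.16, 4.08 and 4.79. Itgb4 was at 2.80, 2.65 and 4.16 after saline and at 3.85, 2.89 and 3.28 with ECM. Neither gene was called between PE and saline or ECM in B6 mice, with or without MRL PE replicate 2. Whether vessel, nerve or epithelial content bears on the falls of Itga1 and Itgb4 was not tested.

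Lama2, the laminin alpha chain of the fibre's basement membrane, fell in B6 muscle treated with PE. The gene spans bases 26856032 to 27495754 of chromosome 10 (GRCm39, reverse strand), and Lama4 lies on the same chromosome at 38841141 to 38998403. Lama2 was at 5.69, 4.98 and 5.54 log2 CPM in uninjured B6 libraries. After injury it was at 5.31, 4.46 and 4.72 with saline, 4.81, 4.83 and 4.6 with ECM and 4.63, 4.51 and 4.94 with PE. The ECM and PE libraries were all below the uninjured ones, and with PE Lama2 fell by 0.71 ± 0.22 (limma, adjusted p = 0.0295). That call was lost without B6 uninjured replicate 1 or 3 or B6 PE replicate 1 or 2 (adjusted p 0.0732 to 0.135). The uninjured MRL libraries held 5.21, 5.67 and 5.30 and the saline ones 5.93, 5.61 and 5.44. The saline-treated strains did not overlap, with MRL 0.83 ± 0.22 above B6 (adjusted p = 0.0569), and without MRL PE replicate 2 the adjusted p was 0.0384. For saline against uninjured muscle, the strain difference in Lama2 was 0.84 ± 0.32 (limma, adjusted p = 1.0), so unequal injury responses were not shown.

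Lama4, a chain of vessel, nerve and fat basement membranes, and Lamb1, which fibre basement membranes also use, were higher in MRL PE. Lama4 was at 5.02, 5.70 and 4.61 log2 CPM in uninjured MRL muscle and at 6.63, 6.39 and 6.24 with PE. It rose by 1.31 ± 0.35 (limma, adjusted p = 0.0448), and all 3 PE libraries, replicate 2 among them, were above the uninjured ones. Lamb1 went from 5.58, 5.87 and 5.12 to 6.79, 7.21 and 5.96, a rise of 1.13 ± 0.32 (adjusted p = 0.0463). Lamc1, the gamma chain common to most laminins, went from 7.13, 7.34 and 6.86 to 7.77, 8.35 and 7.5 and rose by 0.76 ± 0.23 (adjusted p = 0.0484). With Itgb6, which fell, these were the 4 of 36 called in this comparison, where 9.73% of all genes were called. Saline-treated MRL muscle held 6.04, 5.20 and 5.46 for Lama4, 6.47, 5.82 and 5.97 for Lamb1 and 7.73, 7.18 and 7.18 for Lamc1. Lamb1 and Lamc1 there overlapped MRL PE, and none of the 36 genes was called between PE and saline in MRL mice. In B6 PE Lama4 stayed at 5.36, 5.77 and 5.28, against 5.75, 6.10 and 5.62 without injury.

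Without MRL PE replicate 2 the sizes were 1.32 for Lama4 (limma, adjusted p = 0.182), 0.85 for Lamb1 (adjusted p = 0.208) and 0.52 for Lamc1 (adjusted p = 0.245). None of the 36 was then called, with 0.00706% of all genes called. Calls on these 3 genes were also lost without uninjured MRL replicate 1 or 3. Lama4 shares 293 exon bases with Fam229b of the opposite strand, whose level was 0.85 to 1.16 log2 CPM in these libraries, and Lamb1 shares 303 bases with Dld, which differed by -0.69 ± 0.35. Adipocyte markers summed to 5320 and 3480 CPM in MRL PE replicates 1 and 3 and 461 CPM in replicate 2, while Lama4 was high in all 3 libraries. In every group except saline-treated B6 muscle, the library with the largest adipocyte sum also held the highest Lama4. In uninjured MRL muscle this was replicate 2, with 2460 CPM and Lama4 at 5.70. In saline-treated B6 muscle Lama4 was highest, at 6.11, in replicate 3, where the sum was lowest at 350 CPM. The library with the largest sum also held the highest Lamb1 in every group except MRL PE. Lamc3, a chain of small amounts, was at 3.33 and 2.31 log2 CPM in MRL PE replicates 1 and 3 and at -0.54 in replicate 2. In the other libraries Lamc3 did not exceed 2.13. The part of fat in these levels was not tested.

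**Figure D4:**
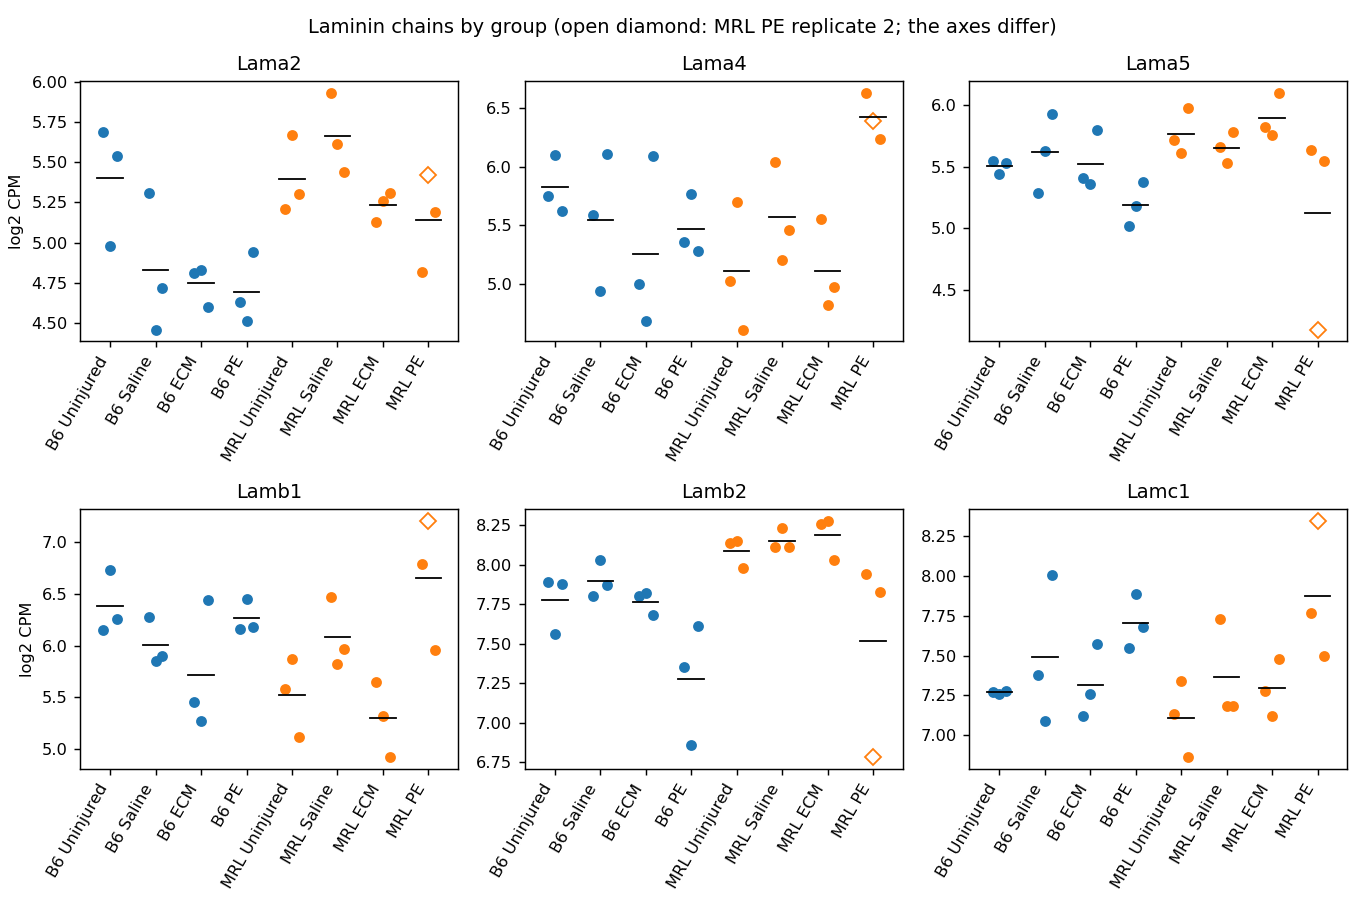
Level (log2 CPM) of 6 laminin chains in each library of the 8 groups, with a separate vertical axis per chain. Dots are libraries (blue B6, orange MRL), the open diamond is MRL PE replicate 2 and lines are means of 3. Lama4 in MRL PE lies above uninjured MRL muscle in all 3 libraries, and Lama2 in B6 ECM and PE lies below uninjured B6 muscle.

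The balance of chains can be read within a library, where depth and scaling cancel. Lama4 minus Lama2 was -0.19, 0.03 and -0.69 in uninjured MRL muscle, 0.11, -0.40 and 0.01 after saline, 0.42, -0.44 and -0.34 with ECM and 1.81, 0.97 and 1.05 with PE. The 3 PE libraries were above every other MRL library. The mean difference between PE and uninjured muscle was 1.56 (exact permutation test, two-sided, p = 0.10, the smallest that 3 against 3 allow). Over the 84 such ratio tests run, 32 reached this p, and its adjusted value was 0.262. In B6 mice the PE values of 0.73, 1.26 and 0.34 overlapped the uninjured ones of 0.06, 1.11 and 0.08. As a share of the 4 laminin alpha chains per kb, Lama4 was 66.2% ± 4.64 in MRL PE and 38.0% ± 8.87 in uninjured MRL muscle (SD, n = 3). It was 54.5% ± 6.90 in B6 PE and 52.1% ± 7.77 in uninjured B6 muscle. Uninjured MRL muscle was below uninjured B6 muscle in Lama4 minus Lama2 in all libraries, by -0.70 in the mean (exact permutation test, two-sided, p = 0.10).

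Lamb2, the synaptic and fibre beta chain, took 70.6% ± 6.26 of the beta chains per kb in uninjured B6 muscle and 83.5% ± 1.90 in uninjured MRL muscle. Lamb1 minus Lamb2 was -1.74, -0.83 and -1.62 in uninjured B6 libraries and -2.56, -2.28 and -2.86 in uninjured MRL libraries, which do not overlap (difference -1.17, exact permutation test, two-sided, p = 0.10). With PE the MRL values were -1.15, 0.43 and -1.86, all above the uninjured ones. Lamb2 itself was at 7.89, 7.56 and 7.88 log2 CPM in uninjured B6 muscle and at 8.14, 8.15 and 7.98 in uninjured MRL muscle. It was higher in every MRL library than in every B6 library without injury, after saline and with ECM, by 0.32, 0.25 and 0.42 in the mean, and limma called none of these (adjusted p 0.446 to 0.715). Of all genes, 12.2%, 7.48% and 12.9% were higher in MRL without overlap in the same comparisons. With PE, Lamb2 was called higher in MRL than in B6 mice once MRL PE replicate 2 was left out, but not with all libraries.

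**Figure D5:**
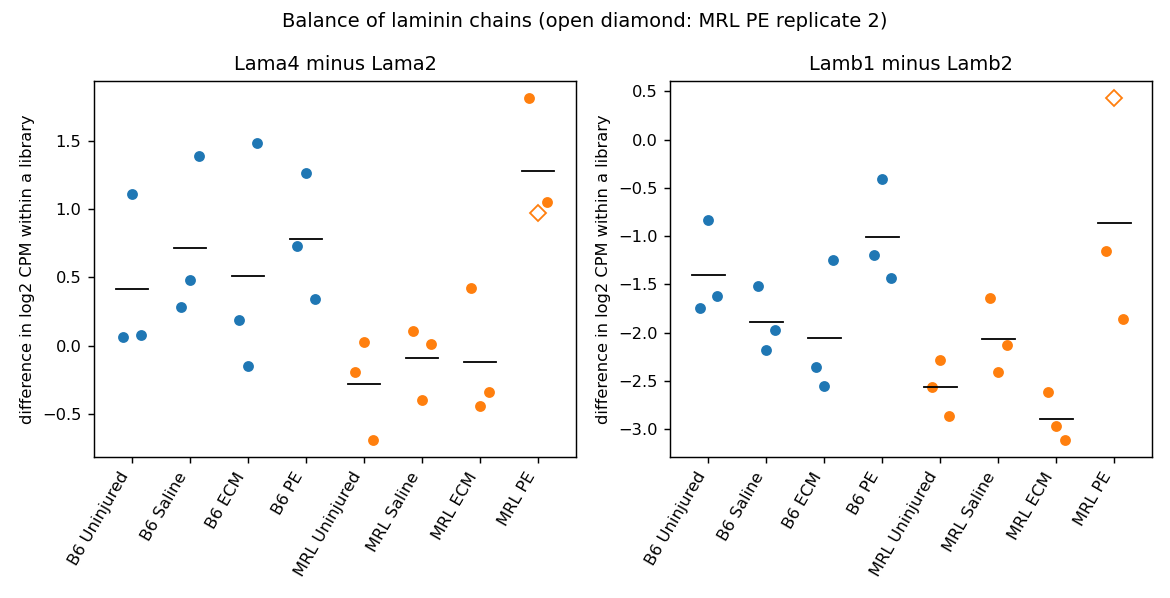
Lama4 minus Lama2 (left) and Lamb1 minus Lamb2 (right) in log2 CPM within each library of the 8 groups. Dots are libraries (blue B6, orange MRL), the open diamond is MRL PE replicate 2 and lines are means of 3. The 3 MRL PE libraries lie above the other MRL libraries on the left, from 0.97 to 1.81.

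The remaining chains were called in no comparison with all libraries. The collagen receptor chains Itga2, Itga10 and Itga11 ranged over -0.56 to 2.03, 0.34 to 3.98 and 2.30 to 4.21 log2 CPM. Itgav, the alpha chain of several RGD receptors, was at 5.26, 4.87 and 5.08 log2 CPM in uninjured B6 muscle and at 5.75, 5.70 and 5.71 with PE. Its PE libraries were above the uninjured ones, by 0.65 ± 0.28 (limma, adjusted p = 0.0888), as were those of Itga9, a tenascin receptor chain, by 0.85 ± 0.35 (adjusted p = 0.0815). Itga8 and Itga3 lay below without overlap, by -1.09 ± 0.40 and -0.79 ± 0.30 (adjusted p = 0.0544 and 0.0625). Without MRL PE replicate 2, Itgav was called higher and Itga8 and Lamc3 lower in B6 PE than in uninjured B6 muscle. Of the 36 genes, 22 had PE and uninjured B6 libraries that did not overlap, 13 above and 9 below, against 51.1% of all genes tested (27% above and 24.1% below). Itgb5 ranged from 4.54 to 7.05, Itgb8 from -1.74 to 1.86 and Lama5, the alpha chain of adult vessels, from 4.18 to 6.10. Itga6, Itgb5 and Lama3 have transcripts that closely match part of another gene of the matrix, so their counts are less certain.

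Itgb6, the epithelial beta chain whose pair with Itgav activates latent TGF-beta, was lower in MRL PE. It was at 5.58, 4.91 and 5.40 log2 CPM in uninjured MRL muscle and at 3.70, 2.80 and 4.27 with PE. The groups did not overlap, replicate 2 was the lowest, and the fall was 1.71 ± 0.42 (limma, adjusted p = 0.0448). Without replicate 2 the difference was -1.32 (adjusted p = 0.188), and the call was also lost without uninjured MRL replicate 1 or 3 (adjusted p 0.109 and 0.188). In B6 PE it held 4.59, 3.66 and 4.68, within the uninjured B6 range of 3.28 to 5.27. The epithelial chains Lama3 and Lamb3 were not called in any comparison with all libraries. Markers of epithelium, skin and mammary gland, 14 genes, summed to 82.3 to 546 CPM per library. Their sums were 192, 197 and 82.3 CPM in uninjured MRL muscle and 515, 376 and 482 CPM in MRL PE, where Itgb6 was lower. The 12 fibre markers summed to 183000, 194000 and 254000 CPM and to 150000, 38900 and 152000 CPM in the same groups. The part of epithelium or fibres in the levels of these chains was not tested.

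Genes that work with integrins and laminins were examined as 3 lists. Of 18 measured integrin ligands, 6 were called higher in B6 PE than in uninjured B6 muscle and 0 lower, where 14.7% of all genes were called higher and 10% lower, with a median difference of 0.83 against 0.02 over all genes. Mfge8, a bridge between dying cells and integrins, rose by 4.80 ± 0.80 (limma, adjusted p = 0.0018), Postn by 2.35 ± 0.75 and Fn1, the Itga5 ligand, by 2.25 ± 0.71. Against saline, 3 ligands were called higher, where 5.37% of all genes were, with Spp1 (osteopontin) up by 5.99 ± 1.64 (adjusted p = 0.0394). Of 23 effectors that link integrins to actin or activate them, 7 rose and 3 fell in B6 PE against uninjured muscle, where 14.7% and 10% of all genes did. Those with the largest rises were Fermt3 by 3.94 ± 0.75, Ptk2b by 3.28 ± 0.78, Apbb1ip by 2.95 ± 0.66 and Parvg by 2.79 ± 0.89 (adjusted p 0.00319 to 0.0305). Among 19 basement membrane partners, 0 were called in B6 PE in limma (6 at an unadjusted p under 0.05, against 40.9% of all genes). Without MRL PE replicate 2, 4 were called, 2 higher and 2 lower, where 19.2% of all genes were called higher and 15.6% lower. In MRL PE, 2 of these rose, Col18a1 by 1.53 ± 0.45 and Nid1 by 1.17 ± 0.31, and Dmd fell by 1.09 ± 0.31 (limma, adjusted p 0.0448 to 0.0468). In that comparison 5.95% of all genes were called higher and 3.78% lower. Without MRL PE replicate 2, 0 of the 19 were called there, with 0.00706% of all genes called.

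Between the strains, 1 of 36 was called in uninjured muscle, Itgad, where 2.6% of all genes were called. In saline-treated muscle 0 of 36 were called (2 at an unadjusted p under 0.05, against 13.3% of all genes) with 2.51% of all genes called in limma, and with ECM 0 of 36 (3, against 13.4%) with 2.66%. Without MRL PE replicate 2, Lama2 was called after saline (3.48% of all genes) and Itgb2 with ECM (4.24%). Itgb2 was at 5.60, 4.02 and 5.22 log2 CPM in B6 ECM and at 3.11, 3.03 and 3.21 in MRL ECM, a difference of -1.83 ± 1.15 with all libraries (limma, adjusted p = 0.517) and -1.83 ± 0.39 without that one (adjusted p = 0.00782). Myeloid markers summed to 273 to 677 CPM in B6 ECM and 182 to 267 CPM in MRL ECM. Itgb1bp1, which encodes an inhibitor of Itgb1 activation, was above B6 in MRL muscle in all 4 treatments, by 0.98 ± 0.20 without injury, 0.91 ± 0.20 after saline, 1.44 ± 0.20 with ECM and 1.59 ± 0.20 with PE (limma, adjusted p 2.88e-05 to 0.0137). It was the only one of the 23 effectors called in each of the 4 comparisons.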

How the data were processed

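RNA was measured by poly-A bulk sequencing of 24 quadriceps libraries, grouped by strain and treatment as the labels give them, 3 per group. The authors quantified reads with kallisto against the Ensembl GRCm39 transcriptome, summed them to genes, kept genes above 1 CPM in at least 3 libraries and deposited log2 CPM values scaled by edgeR TMM with a prior count of 2. The kallisto version and the Ensembl release of the transcriptome are not given in the sources used here. The kallisto commands the authors list set no strand option. Of 14160 rows, 1 had no symbol and was left out. Depth per library was not used here, since the matrix gives only the mean effective size, and floors cover counting error only.

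All 14159 genes were fitted together in limma 3.58.1 (R 4.3.3) with 1 coefficient per group and a mean-variance trend. The authors' voom weights were not used because the deposited values are log2 CPM, not counts. P-values are two-sided and Benjamini-Hochberg adjusted within each of 16 comparisons and 3 interactions, and calls are those below an adjusted p of 0.05. Differences are on the log2 scale of the deposited values, whose prior count shrinks those of low genes. Values were tabulated in Python 3.11.15 (pandas 2.3.3, numpy 2.4.6) and plotted with matplotlib 3.10.9. Ratios within a library were compared by exact permutation tests. Levels per kb divide CPM by transcript length. Positions are GRCm39, from GENCODE vM39, and similar transcripts were found with BLAST 2.17.0. The fit was also run on simulated data. There each gene had the same spread in all groups, so the larger spread of MRL PE was not covered.

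Members and lists were chosen with earlier results of these data known. Genes named were the 4 leukocyte integrins, Itga7, Itgb1, Lama2, Lamb2 and Lamc1 whatever their change, and in each comparison up to 6 called members per direction with the largest change. Levels were given for the other members, except 1 that is not reported here, and up to 4 called genes were named per list. Partners that overlap a member, Lamc3 and Itgb1bp1 were chosen after their values were seen. Alternatives were a log2(CPM + 1) scale, a minimum mean log2 CPM of 1, fits to the compared groups alone, library weights, quantile normalization, the replicate number as a block and leaving out each library. Leaving MRL PE replicate 2 out of every comparison was chosen after seeing the data. Equal replicate numbers deviated together, with every correlation above 0.1, only between MRL PE and B6 PE (r = 0.105, 0.532 and 0.439), and the replicate block changed no call there.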

Additional observations from a re-analysis of the deposited data

Results flagged for a closer look

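Strain by PE interactions differed from 0 for 7 of the 36 genes once MRL PE replicate 2 was left out, where 4.41% of all genes were called. The interaction is the change from saline to PE in MRL minus that in B6 mice. It was -8.68 ± 1.22 for Itgax (limma, adjusted p = 0.000302), -6.33 ± 0.58 for Itgb2 (adjusted p = 1.29e-05), -4.74 ± 0.70 for Itgam (adjusted p = 0.000441) and -2.67 ± 0.57 for Itgal (adjusted p = 0.00986). The integrin chains Itgb3 and Itga5 followed at -2.63 ± 0.61 (adjusted p = 0.0158) and -1.82 ± 0.44 (adjusted p = 0.0215). Lamc3 went the other way, at 3.95 ± 1.05 (adjusted p = 0.0383). With all 24 libraries limma called 0 of the 36 in this interaction, with 8 at an unadjusted p under 0.05, against 4.34% of all genes. The 7 results rest on 2 MRL PE libraries. Which of the 3 MRL PE libraries is typical of the treatment cannot be told from these data. Groups of 3 are too small for an outlier test.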

How the results depend on the processing

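Counts are of the 36 genes called, with all libraries unless said. Shares of all genes are not set beside them in this section, so a higher count is not by itself a result about these genes. Without MRL PE replicate 2 the share of all genes called went from 3.35% to 24.6% for MRL against B6 with PE. Against uninjured muscle it went from 24.8% to 34.8% for B6 PE and from 9.73% to 0.00706% for MRL PE. On the log2(CPM + 1) scale, MRL against B6 uninjured muscle and B6 ECM against uninjured each gave 0. The filter on low values also gave 0 in both. It removed Itgad, the only one of the 36 called there, whose mean was -0.42 log2 CPM, so it could not check those calls. For MRL PE against ECM the filter gave 1. Library weights, which gave MRL PE replicate 2 a weight of 0.09, raised the counts to 2 for MRL against B6 after saline, 4 with ECM and 19 with PE. In B6 mice they gave 3 for saline, 10 for ECM and 22 for PE against uninjured muscle, and 12 and 11 for PE against saline and ECM. In MRL mice they gave 6 and 8 for PE against saline and ECM, and the interaction of strain with PE against saline gave 10. Quantile normalization gave 1 for MRL against B6 with PE, 0 for B6 ECM and 0 for MRL PE against uninjured muscle. The replicate block gave 0 for B6 ECM and 0 for MRL PE against uninjured muscle and changed no other count by over 1.5 times. Fits to the compared groups alone gave 5 for B6 ECM, 14 for B6 PE and 0 for MRL PE against uninjured muscle, and 3 for B6 PE against ECM.

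Leaving out 1 library at a time, the count ranged over 0 to 1 for MRL against B6 in uninjured, saline-treated and ECM-treated muscle and 0 to 14 with PE. Against uninjured muscle it ranged over 0 to 1 for B6 saline, 0 to 4 for B6 ECM, 3 to 17 for B6 PE and 0 to 13 for MRL PE, with 11, 0 and 13 without MRL PE replicates 1, 2 and 3. For B6 PE it ranged over 0 to 10 against saline and 0 to 8 against ECM, for MRL PE over 0 to 1 and 0 to 7, and for the interaction of strain with PE over 0 to 7. Itgam, Itgax and Itgb2 kept their calls in B6 PE against uninjured muscle under every alternative run.

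Directions reversed for leukocyte integrins not called. Itgax in MRL PE was -1.20 against uninjured and -2.13 against saline with library weights, and -1.53 and -2.44 without MRL PE replicate 2. Against saline, Itgb2 was -0.46 and -0.73 in the same fits, and Itgal and Itgam were -0.02 and -0.23 without that library. Without 1 MRL PE library at a time, Itgax ranged from -1.53 to 4.14 against uninjured muscle and from -2.44 to 3.23 against saline, Itgb2 against saline from -0.73 to 3.03, Itgam from -0.23 to 2.54 and Itgal from -0.02 to 2.10. Itgam between uninjured strains was 0.02 with quantile normalization, 0.06 without B6 uninjured replicate 3 and 0.27 without MRL uninjured replicate 3, in a range of -0.42 to 0.27 over single left-out libraries. Of the other values of named genes under alternatives, 494 kept direction and call, 31 gained and 77 lost a call. The cause was not tested.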

Other observations

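Marker lists outside the comparisons above also moved with PE in B6 mice. Fibroblast markers were called higher for 5 of 9 genes against uninjured muscle, where 14.7% of all genes were called higher. They summed to 5790 to 9990 CPM, against 1440 to 2130 CPM without injury. Smooth muscle and pericyte markers were called lower for 2 of 8, Myh11 and Rgs5, where 10% of all genes were called lower. In MRL PE, 2 of 9 fibroblast markers were called higher, Dpt and Pdgfra, where 5.95% of all genes were called higher. Without replicate 2, 0 of 9 were called, with 0.00706% of all genes called. The list summed to 17600 CPM in replicate 2 and to 2940 and 2230 CPM in replicates 1 and 3. All 8 adipocyte markers had a positive mean difference between MRL PE and uninjured MRL muscle (median 1.78). Of these limma called 0, against 9.73% of all genes, with 1 at an unadjusted p under 0.05, against 36.1% of all genes. Their sums were 5320, 461 and 3480 CPM in MRL PE and 254, 2460 and 676 CPM in uninjured MRL muscle, so replicate 2 lay within the uninjured range.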
